A study of Mus musculus with 6 samples.

Results

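The genes described here encode the secreted and membrane-bound cues of cell and axon guidance and their receptors, namely the semaphorins, plexins, neuropilins, ephrins, Eph receptors, netrins, Unc5 receptors, Slits and Robo receptors. Members were all genes whose single symbol in the platform annotation carries one of these family names, and each was read through its probe set (the group of probes that reads 1 transcript) with the highest mean over the 6 arrays. This gave 68 genes, measured by 73 probe sets, of 19938 genes with a symbol. The rule also took in Unc5cl, which shares the Unc5 name but is known from inflammatory signalling rather than guidance. The cells were NIH/3T3, mouse embryo fibroblasts that grow without limit in culture, and expression was read on Affymetrix Mouse Gene 1.0 ST arrays. The 8KR group (3 arrays) stably expressed an HA-tagged RPB1, the catalytic subunit of RNA polymerase II, in which the lysines at position 7 of the repeats of its C-terminal tail had been replaced by arginines, so that these positions keep their charge but cannot be acetylated. The wild type group (3 arrays) stably expressed HA-tagged RPB1 with those lysines intact. Both groups were grown in medium with bovine calf serum and α-amanitin, a mushroom toxin that blocks RNA polymerase II, and the labels name no other treatment. The replicates are called biological in the labels. The labels do not say whether the 3 samples of a group come from 1 transfected population, so p-values measure only the spread between these samples.

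Values are log2 intensities, in which a difference of 1 is a doubling. They compare 8KR with wild type for the same probe set and do not rank one gene against another. Array medians lay between 4.53 and 4.54 in 8KR cells and between 4.49 and 4.52 in wild type cells, and arrays of 1 group correlated at 0.982 to 0.984, those of different groups at 0.975 to 0.978. Polr2a, the gene of RPB1, was at 12.12, 12.13 and 12.13 in 8KR cells and at 12.10, 12.11 and 12.09 in wild type cells, but its probe set does not separate the mutant from the wild type message and so does not check the labels. Of 12 fibroblast markers, 11 lay above a log2 intensity of 3.0 on every array, among them Col1a1, Vim, Thy1 and Prrx1, whereas Fap lay below it in both groups. The methods of the study treat 3.0 as the limit of background. Of the 11 fibroblast markers tested only Col3a1, a fibrillar collagen, passed the test described below, and it fell by 0.52 on the log2 scale. That share was 9.09%, against 5.39% of all tested genes. At an unadjusted p under 0.05 by limma there were 4 of 11, all lower in 8KR cells (36.4%, against 21.8% of all tested genes). Summed on the linear scale, the 12 fibroblast markers came to between 17200 and 17500 on the 8KR arrays. On the wild type arrays they came to between 18000 and 18600, without overlap. Such a sum mostly follows the brightest markers, among them S100a4 (log2 difference -0.20). Of the 11 tested, 8 had a negative difference, and Fn1 (0.09), Vim (0.03) and Prrx1 (0.05) had positive ones. The part of this shift between the groups in the values of the guidance genes was not tested. No marker of neurons, endothelium, epithelium or leukocytes passed (0 of 19 tested, by limma), and 2 of them, Tek and Cldn4, had an unadjusted p under 0.05. That test compares the groups and does not show that a cell type is absent. By level, 5 of 6 neuronal, 4 of 6 endothelial, 5 of 6 epithelial and 3 of 5 leukocyte markers also lay above 3.0 on every array. The limit of 3.0 therefore does not tell these cell types from fibroblasts.

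Guidance cues act at the cell surface. Semaphorins bind plexins, alone or with a neuropilin as co-receptor, and plexins switch off small GTPases of the Ras family and act on actin. Ephrins are tethered to the membrane and signal through the Eph receptor tyrosine kinases of a touching cell, netrins bind Dcc and Unc5 receptors, and Slits bind Robo receptors. The same genes steer growth cones, vessels and migrating neural crest, and fibroblasts use several of them in repulsion on contact and in the sorting of cells into compartments.

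The 250 bases before the annotated start are shown for the 4 members that passed the test and for Sema3a, the member next to the threshold. They were chosen because the polymerase that carries the mutation starts transcription next to such a stretch. The sequences are from RefSeq on assembly GRCm38.p6, read 5′ to 3′ on the strand of the gene, and for a gene with more than 1 start the most upstream one is shown. Which start these cells use was not tested. Capitals mark matches, on either strand, to 5 motifs. The GC box was searched as GGGCGG. The TATA box was searched as TATAAA. The CCAAT box was searched by the letters of its name. For the E-box the letters were CACGTG, and the cAMP response element was the palindrome TGACGTCA. Overlapping matches were counted separately.
Sema5a, chr15:32244563-32244812, plus strand: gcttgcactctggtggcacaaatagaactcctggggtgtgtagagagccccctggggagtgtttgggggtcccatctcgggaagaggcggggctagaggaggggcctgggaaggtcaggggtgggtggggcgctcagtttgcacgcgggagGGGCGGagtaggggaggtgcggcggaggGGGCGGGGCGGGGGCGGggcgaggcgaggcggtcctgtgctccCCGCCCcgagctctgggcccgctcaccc
Unc5b, chr10:60831582-60831831, minus strand: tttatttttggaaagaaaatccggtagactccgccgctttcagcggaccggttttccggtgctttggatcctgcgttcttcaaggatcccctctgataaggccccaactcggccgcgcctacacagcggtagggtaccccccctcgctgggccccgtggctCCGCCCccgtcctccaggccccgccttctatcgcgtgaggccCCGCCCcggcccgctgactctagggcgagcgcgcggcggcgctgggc
Plxnb2, chr15:89180789-89181038, minus strand: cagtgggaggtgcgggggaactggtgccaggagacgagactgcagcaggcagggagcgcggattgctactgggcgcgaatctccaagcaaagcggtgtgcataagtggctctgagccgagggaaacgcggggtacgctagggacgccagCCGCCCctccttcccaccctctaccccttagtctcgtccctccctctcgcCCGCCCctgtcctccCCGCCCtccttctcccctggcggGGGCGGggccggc
Epha7, chr4:28812881-28813130, plus strand: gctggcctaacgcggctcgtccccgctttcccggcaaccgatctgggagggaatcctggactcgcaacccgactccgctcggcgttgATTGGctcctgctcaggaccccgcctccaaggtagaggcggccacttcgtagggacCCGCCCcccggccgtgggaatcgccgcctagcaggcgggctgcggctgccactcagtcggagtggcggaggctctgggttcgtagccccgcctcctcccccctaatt
Sema3a, chr5:13396534-13396783, plus strand: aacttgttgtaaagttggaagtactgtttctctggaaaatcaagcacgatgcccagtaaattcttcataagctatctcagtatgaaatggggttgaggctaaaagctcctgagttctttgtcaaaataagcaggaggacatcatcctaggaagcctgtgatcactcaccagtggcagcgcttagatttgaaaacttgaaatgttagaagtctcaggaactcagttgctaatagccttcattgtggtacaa

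The Sema5a promoter held 5 GC boxes, 3 of them in 1 run, the Plxnb2 promoter 4, the Unc5b promoter 2 and the Epha7 promoter 1, and the last also held a CCAAT box. Both genes that rose and both genes that fell thus had GC-rich starts, with a GC content of 72.0% for Sema5a, 66.8% for Unc5b, 69.2% for Plxnb2 and 69.2% for Epha7. Such starts are common, as the median GC content was 64.4% over member promoters and 58.0% over promoters of tested genes. The Sema3a promoter differed from those of the called genes in having a GC content of 40.8%, 2 CpG dinucleotides and none of the 5 motifs. Sequences were found for 59 of the 68 members, with 75 starts. A GC box stood in 72.0% of these, against 50.0% of the 16768 promoters of genes tested on the arrays and 32.7% of all 32851 promoters of that length. A TATA box stood in 2.67% of the member promoters, against 8.36% of those of tested genes and 12.4% of all. These matches describe letters and not bound sites.

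Most guidance genes did not differ detectably between 8KR and wild type cells. Sema5a and Unc5b rose and Plxnb2 and Epha7 fell, each by less than 2-fold, and 60 of the 64 tested members did not pass. A member was tested where at least 1 group mean was above 3.0, and it passed at an adjusted p under 0.05 from limma's moderated test, 8KR minus wild type, with Benjamini-Hochberg adjustment over all 28543 probe sets tested. Of the 64 members 6.25% were called, near the 5.39% called among all 17145 genes tested. The 2 rises compare with 2.33% of all genes called higher and the 2 falls with 3.06% called lower. The median log2 difference was 0.02 over the members and 0.01 over all tested genes, and the median size of the difference was 0.12 over the members and 0.14 over all tested genes. No member had a difference of 1 or more in size, as 1.22% of all tested genes did. At an unadjusted p under 0.05 there were 10 members (15.6%), 4 higher and 6 lower, against 21.8% of all tested genes (10.9% higher and 11.0% lower). The 3 8KR arrays lay wholly above or below the 3 wild type arrays for 14 members (21.9%), against 29.7% of all tested genes. Of these 14, 5 were higher and 9 lower in 8KR cells, and over all tested genes the shares were 15.0% and 14.7%. A smaller part of the tested members than of all tested genes had a group mean above 5.0 (26 of 64 against 9882 of 17145). Among genes that bright, 30.8% of the members and 32.3% of all genes had an unadjusted p under 0.05, and 11.5% of the members and 8.88% of all genes were called.

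**Figure D1:**
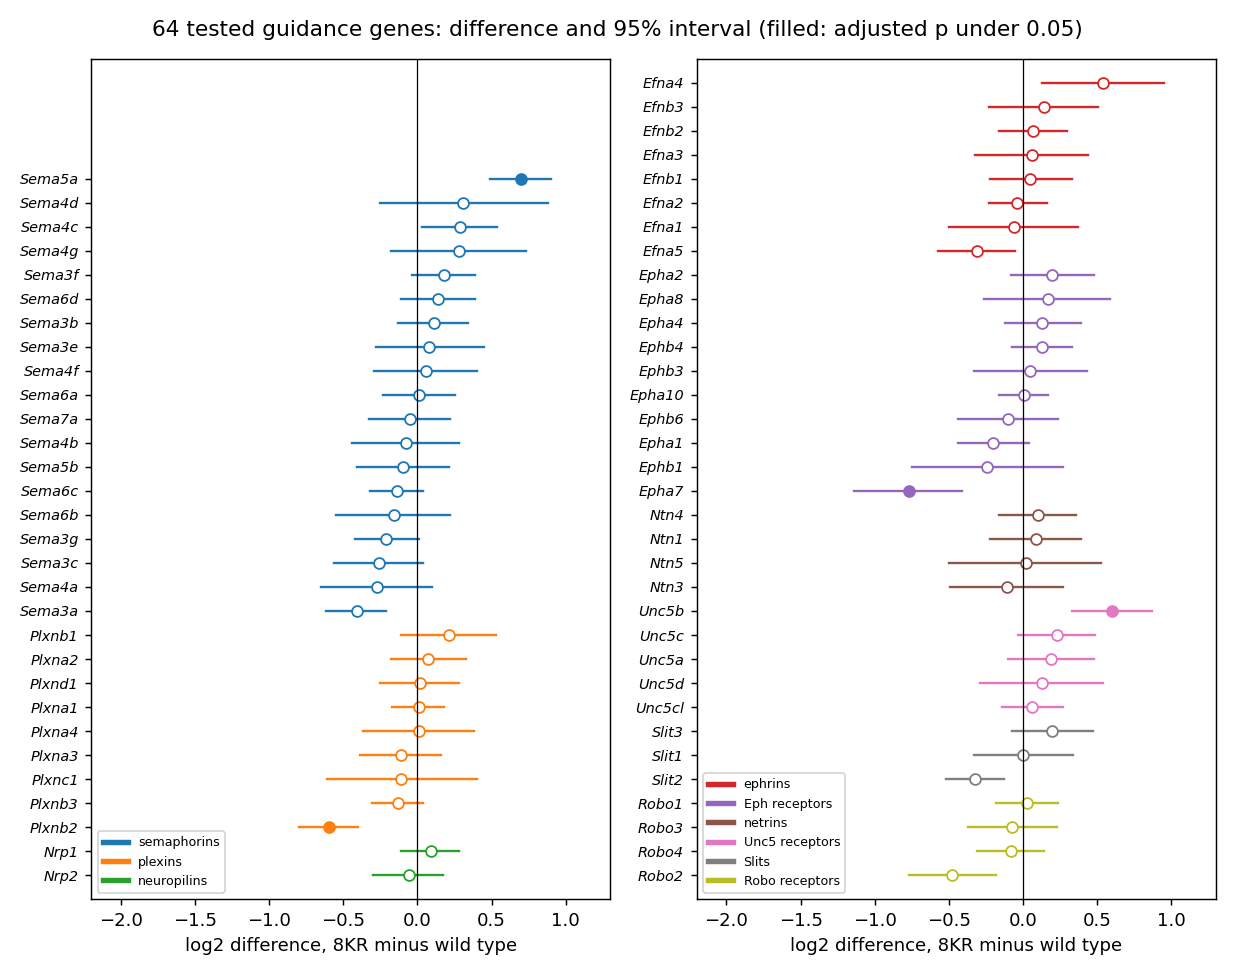
Log2 difference, 8KR minus wild type (horizontal axis), of the 64 tested guidance genes (rows, coloured by family) with its 95% interval from limma. Filled points passed at an adjusted p under 0.05, with Sema5a and Unc5b to the right of 0 and Plxnb2 and Epha7 to the left, and the remaining 60 are open.

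The 4 calls rest on all 6 arrays. With any 1 array left out, between 0 and 2 members passed, while the share of all genes called dropped to between 1.59% and 1.71%. Without 8KR replicate 1 or 2 or wild type replicate 1 or 3 none of the members passed. Sema5a alone passed without 8KR replicate 3, and Sema5a and Plxnb2 passed without wild type replicate 2. The log2 differences moved less than the calls, to between 0.66 and 0.75 for Sema5a, 0.49 and 0.67 for Unc5b, -0.65 and -0.54 for Plxnb2 and -0.85 and -0.63 for Epha7.

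Among the ligands, the semaphorins held the largest rise. Sema5a encodes a membrane-spanning semaphorin with thrombospondin repeats that is known as a ligand of plexin B3. It was at 7.22, 7.25 and 7.09 in 8KR cells and at 6.49, 6.56 and 6.41 in wild type cells. All 8KR arrays lay above all wild type arrays, and the means of 7.19 ± 0.09 in 8KR and 6.49 ± 0.07 in wild type cells (SD, n = 3 each) differed by 0.70, or 1.62-fold (95% interval 0.49 to 0.90, standard error 0.08, adjusted p = 0.0132 from limma). The other class 5 gene, Sema5b, had a log2 difference of -0.10 (interval -0.41 to 0.21).

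Of the 7 class 3 semaphorins, the secreted class that signals through neuropilins and A plexins, 6 were tested and none was called (1 at an unadjusted p under 0.05). That one was Sema3a, the founding repulsive semaphorin, whose adjusted p of 0.0552 from limma was the first one above the threshold. It was at 6.89, 7.10 and 6.91 in 8KR cells and at 7.37, 7.38 and 7.38 in wild type cells, without overlap (log2 difference -0.41, interval -0.62 to -0.21). Sema3c (-0.26) and Sema3g (-0.21) also had negative differences, and Sema3b (0.11), Sema3e (0.08) and Sema3f (0.18) had positive ones. Sema3d, at a mean of 2.97 in 8KR and 2.79 in wild type cells, had both group means below 3.0 and was not tested. Sema3a, Efna5 and Sema4c are described because of their unadjusted p, a choice made after their values were seen.

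Class 4 semaphorins are membrane-bound ligands, chiefly of B plexins and, for some, of receptors on immune cells. None of the 6 was called. Sema4c, a ligand of plexin B2, was at 6.02, 5.71 and 5.95 in 8KR cells and at 5.55, 5.61 and 5.66 in wild type cells, with a difference of 0.29 (interval 0.03 to 0.54, adjusted p = 0.202 from limma). Differences were 0.31 for Sema4d, 0.28 for Sema4g, 0.06 for Sema4f, -0.08 for Sema4b and -0.27 for Sema4a, and all 5 intervals included 0. The second, dimmer probe set of Sema4d had a difference of 0.02. The class 6 and 7 genes lay between -0.16 (Sema6b) and 0.14 (Sema6d). The 2 Sema6b probe sets held identical values and were counted once.

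Among the plexins, Plxnb2 fell. It encodes a receptor for class 4 semaphorins that is widely expressed outside the nervous system and also binds angiogenin. It was at 8.02, 8.03 and 8.00 in 8KR cells and at 8.73, 8.53 and 8.60 in wild type cells. The 8KR arrays were nearly equal and all lay below the lowest wild type array, with means of 8.02 ± 0.01 in 8KR and 8.62 ± 0.10 in wild type cells (SD, n = 3 each), a log2 difference of -0.60 that leaves the 8KR level at 0.659 of wild type (interval -0.80 to -0.40, standard error 0.08, adjusted p = 0.0184 from limma). The related Plxnb1, the main receptor of Sema4D, had a difference of 0.21 (interval -0.11 to 0.53). Plxnb3, the receptor known for Sema5A, had one of -0.13 (interval -0.31 to 0.04), and its means of 3.93 in 8KR and 4.06 in wild type cells lay below the median of every array.

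The A plexins transmit class 3 and class 6 signals, and Plxna1 overlapped between the groups (9.08, 9.04 and 9.10 in 8KR cells, 9.05, 9.13 and 9.02 in wild type cells, difference 0.01). The other A plexins lay between -0.11 (Plxna3) and 0.07 (Plxna2), with Plxnc1 at -0.11 and Plxnd1 at 0.02. The co-receptor Nrp1 was at 8.13, 8.16 and 8.02 in 8KR cells and at 8.00, 8.09 and 7.96 in wild type cells. These values overlapped, and the difference of 0.09 had an interval of -0.11 to 0.28. Nrp2 had a difference of -0.06 (interval -0.30 to 0.17). Both neuropilin intervals lay within 0.5 of 0 on the log2 scale.

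**Figure D2:**
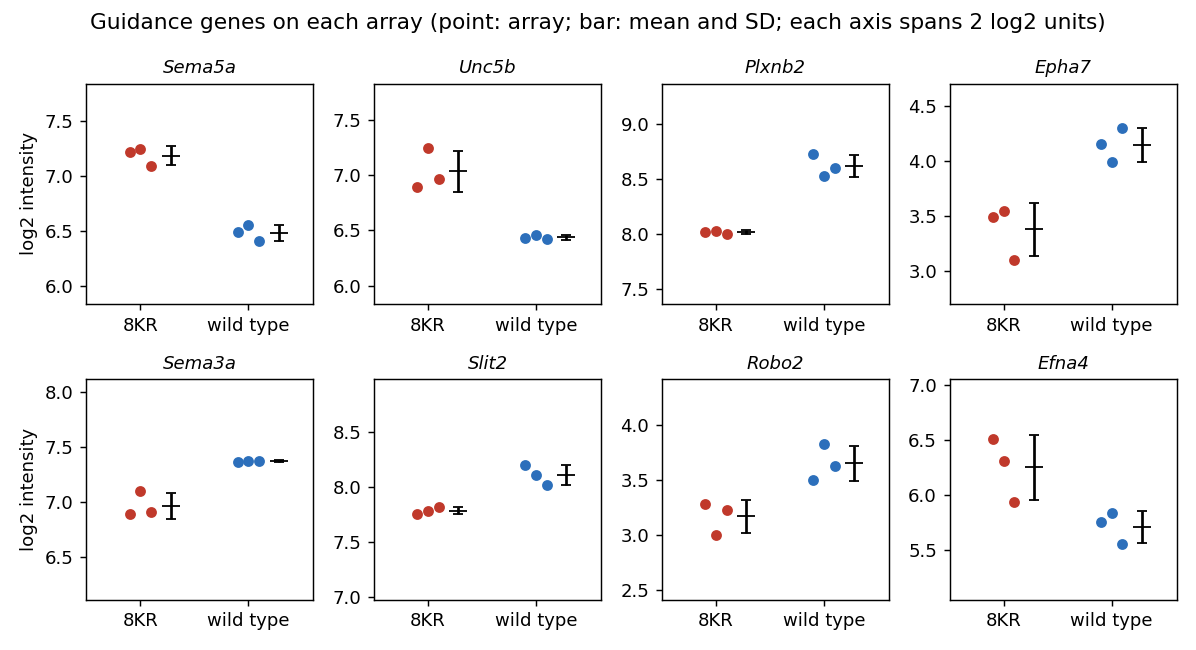
Log2 intensity (vertical axes, each spanning 2 log2 units) of 8 guidance genes on the 3 8KR arrays (red, left) and the 3 wild type arrays (blue, right), with the mean and SD beside the points. Sema5a, Unc5b and Efna4 lie higher and Plxnb2, Epha7, Sema3a, Slit2 and Robo2 lower on all 8KR arrays, and the top row holds the 4 genes that passed the test.

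In the Eph and ephrin system, Epha7 fell and no ephrin passed. Epha7 encodes a receptor for A ephrins, including ephrin-A5, and is best known for repulsion in the developing brain. It was at 3.49, 3.54 and 3.10 in 8KR cells and at 4.15, 3.99 and 4.30 in wild type cells. The groups did not overlap, and the means of 3.37 ± 0.24 in 8KR and 4.15 ± 0.15 in wild type cells (SD, n = 3 each) gave a log2 difference of -0.77 (interval -1.14 to -0.41, standard error 0.15, adjusted p = 0.0475 from limma). Every one of these values lay below the median of its array, and the lowest 8KR value was close to the background limit of 3.0, so the size of this fall is less certain than those of the brighter members. Without the filter on low values the adjusted p was 0.0625.

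The other 9 tested Eph receptors were not called, and the intervals of all 9 included 0. Differences ran from -0.24 for Ephb1 to 0.20 for Epha2, a receptor that many fibroblast and epithelial lines carry. Ephb4, the partner of ephrin-B2 in the separation of arteries from veins, had a difference of 0.13 (interval -0.07 to 0.33). Epha3, Epha5 and Epha6 lay below 3.0 on all 6 arrays and were not tested. Ephb1 and Epha10 have a second probe set each, with differences of 0.03 and 0.07, neither called.

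Of the 8 ephrins, 5 had positive and 3 negative differences. Efna4 encodes a ligand of EphA receptors that is held to the membrane by a lipid anchor. It was at 6.51, 6.31 and 5.93 in 8KR cells and at 5.75, 5.83 and 5.55 in wild type cells. The groups did not overlap but the 8KR arrays were spread, and the difference of 0.54 (interval 0.13 to 0.95) had an adjusted p of 0.146 from limma. Efna5 was at 6.71, 6.36 and 6.48 in 8KR cells and at 6.86, 6.83 and 6.79 in wild type cells (difference -0.31, interval -0.57 to -0.05, adjusted p = 0.184 from limma). Efnb2 was at 8.00, 8.19 and 8.21 in 8KR cells and at 8.02, 8.16 and 8.00 in wild type cells, and its difference of 0.07 lay within the spread of both groups (interval -0.16 to 0.30). The genes of Efna3 and Efna4 lie on chromosome 3 with 1 tested gene between them, and Efna3 had a difference of 0.06.

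Netrin ligands did not differ detectably, whereas 1 of their receptors rose. Unc5b encodes a repulsive netrin receptor that is also prominent in endothelium and binds the Flrt adhesion proteins. It was at 6.89, 7.25 and 6.97 in 8KR cells and at 6.43, 6.46 and 6.42 in wild type cells. All 8KR arrays lay above all wild type arrays, and the means of 7.04 ± 0.19 in 8KR and 6.44 ± 0.02 in wild type cells (SD, n = 3 each) differed by 0.60, or 1.51-fold (interval 0.33 to 0.87, standard error 0.11, adjusted p = 0.0439 from limma). The adjusted p was 0.0591 without the filter on low values. Unc5a (0.19), Unc5c (0.23), Unc5d (0.13) and Unc5cl (0.06) all had positive differences with intervals that included 0, and their means in both groups lay below 5.0. The second probe set of Unc5d had a difference of -0.07.

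Netrin differences were 0.09 for Ntn1, -0.11 for Ntn3, 0.10 for Ntn4 and 0.02 for Ntn5, all at means below 5.0. Ntn4, a laminin-related netrin of basement membranes, was at 4.48, 4.48 and 4.47 in 8KR cells and at 4.17, 4.49 and 4.47 in wild type cells. Its difference came from wild type replicate 1 alone, and without that array it was -0.0016.

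Slit2, which encodes a secreted repellent, and Robo2, one of its receptors, both had negative differences that did not pass. Slit2 was at 7.76, 7.78 and 7.82 in 8KR cells and at 8.20, 8.11 and 8.02 in wild type cells, without overlap (difference -0.32, interval -0.52 to -0.13, adjusted p = 0.0844 from limma). Robo2 was at 3.28, 3.00 and 3.22 in 8KR cells and at 3.50, 3.82 and 3.62 in wild type cells (difference -0.48, interval -0.77 to -0.18, adjusted p = 0.0946 from limma). These groups did not overlap either, but the 8KR values stood close to the background limit. Slit3 was at 8.16, 7.94 and 8.07 in 8KR cells and at 7.70, 7.87 and 8.01 in wild type cells (difference 0.20, interval -0.07 to 0.47, overlapping), and Slit1 had a difference of 0.00. Robo1 (0.03), Robo3 (-0.07) and Robo4 (-0.08), the last an endothelial receptor, had intervals that included 0.

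Among ligands and receptors that bind each other, no pair had both members called. For Sema5a (0.70) and Plxnb3 (-0.13) only the ligand was called, and for Plxnb2 (-0.60) and its ligands Sema4c (0.29) and Sema4d (0.31) only the receptor was. Epha7 was called without Efna5 (-0.31) or Efna4 (0.54), and Unc5b without Ntn1 (0.09). Slit2 (-0.32) and Robo2 (-0.48) both had negative differences, and neither was called. Over all 34 tested ligands 1 was called (2.94%), and over the 30 tested receptors 3 were (10.0%), against 5.39% of all tested genes. Whether these shares differ was not tested.

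Members were also set beside neighbouring genes on the chromosome, and only some shared the direction of their neighbours. Over all 17080 genes with a position, the median difference of the 10 tested genes on either side lay between -0.20 and 0.22 for the central 95%. By construction the other genes lie outside this range. Around Sema3a that median was -0.26, outside the range, with negative differences for 16 of 20 neighbours and Hgf (-1.52), Cacna2d1 (-1.27) and Abcb1b (-1.28) called. Sema3c and Sema3e lie in the same stretch of chromosome 5, with neighbour medians of -0.28 and -0.26 that were also outside the range, and their own differences were -0.26 for Sema3c and 0.08 for Sema3e. Sema6a, at a difference of 0.01, was the other member outside it, with a neighbour median of 0.31. Of the 64 tested members only Sema3a, Sema3c, Sema3e and Sema6a lay outside the range. Around Sema5a the median was -0.17, within the range, with 4 called neighbours, all lower, among them Sdc2, the next gene (-0.80). Sema5a thus rose among neighbours of which 16 had negative and 4 positive differences. Around Plxnb2 (median -0.09), Epha7 (0.02) and Unc5b (-0.01) the median lay within the range. Slit2 had a median of -0.12, also within the range, and 4 called neighbours, all lower, among them Ppargc1a (-3.24) and Sod3 (-3.23). The part of the neighbourhood in the differences of the members was not tested.

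**Figure D3:**
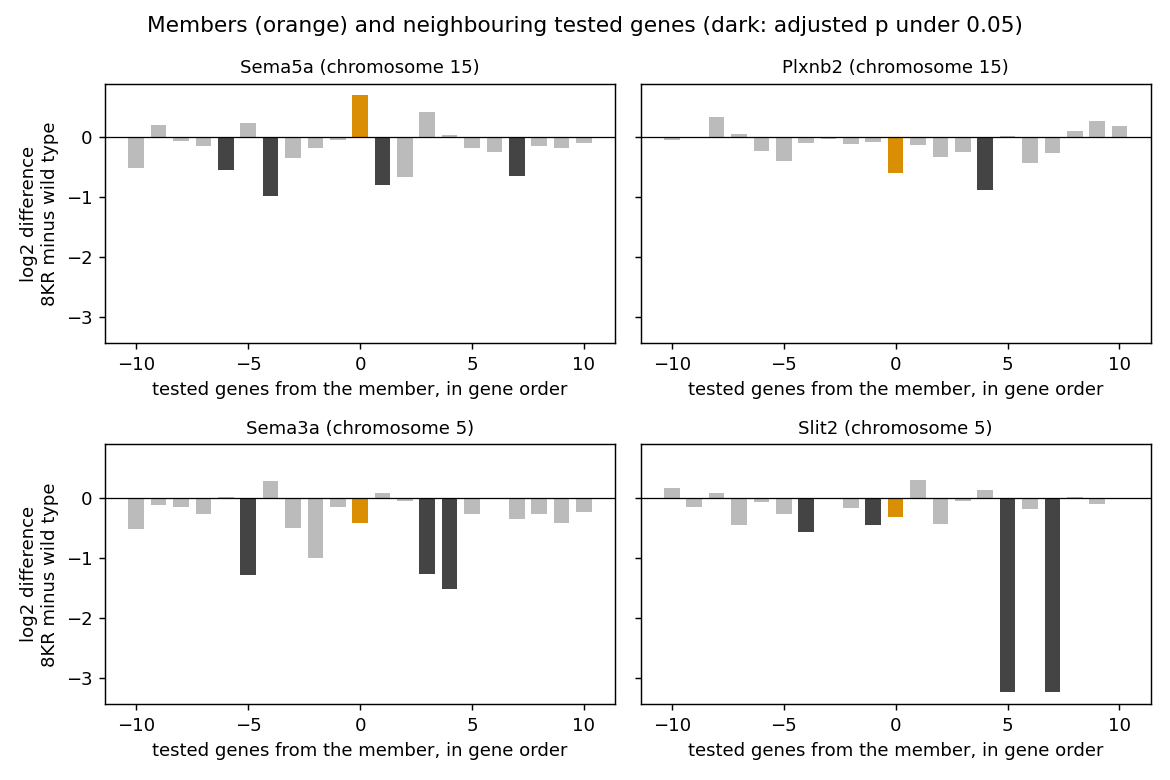
Log2 difference, 8KR minus wild type (vertical axis), of 4 guidance genes (orange) and of the 10 tested genes on either side in gene order (horizontal axis), with neighbours at an adjusted p under 0.05 in dark grey. Sema5a (0.70) stands up among lower neighbours, Plxnb2 (-0.60) has 1 called neighbour, and Sema3a (-0.41) and Slit2 (-0.32) lie among called genes that were lower in 8KR.

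Genes that work with the guidance receptors, at the cell surface or inside the cell, were called in both directions. Lists of co-receptors and their ligands, plexin and neuropilin effectors, Eph effectors, Robo effectors and shared cytoskeletal enzymes held 86 genes, of which 81 had a single symbol here and 78 were tested. Of these 5 rose, 2 fell and 71 did not pass, a share of 8.97% against 5.39% of all tested genes. A larger part of these genes than of all tested genes had a group mean above 5.0. Among the 63 that did, the share called was 11.1%, against 8.88% of all genes that bright. The median difference of the 78 was 0.01, equal to that of all tested genes.

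Of the 19 tested plexin and neuropilin effectors, 3 rose and 1 fell, a share of 21.1% against 5.39% of all tested genes. Whether the share of this small list differs was not tested. Dpysl3 encodes a member of the collapsin response mediator proteins, cytoskeletal proteins of which the first was found as a relay of Sema3A. It was at 8.09, 8.04 and 8.31 in 8KR cells and at 7.15, 7.28 and 7.29 in wild type cells, with a difference of 0.91 (interval 0.66 to 1.15, adjusted p = 0.00993 from limma), and it passed with any 1 array left out. Its relative Dpysl2 was at 8.71, 8.65 and 8.59 in 8KR cells and at 8.31, 8.21 and 8.17 in wild type cells (difference 0.42, adjusted p = 0.0434 from limma). Mical2, which oxidizes actin filaments, was at 7.81, 7.77 and 7.83 in 8KR cells and at 7.39, 7.35 and 7.36 in wild type cells (difference 0.44, adjusted p = 0.0262 from limma). None of these 3 genes overlapped between the groups.

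Arhgef12, an exchange factor for RhoA that binds B plexins, fell. It was at 6.67, 6.63 and 6.47 in 8KR cells and at 7.09, 7.24 and 7.11 in wild type cells (difference -0.56, adjusted p = 0.0299 from limma). Arhgef11, the related exchange factor that also binds B plexins, had a difference of 0.06 (adjusted p = 0.787 from limma), with overlapping groups. Among 18 Eph effectors only Adam10, a surface protease that sheds ephrins, was called, a share of 5.56% against 5.39% of all tested genes. Adam10 was at 7.03, 6.91 and 6.93 in 8KR cells and at 7.44, 7.42 and 7.41 in wild type cells (difference -0.47, adjusted p = 0.0264 from limma). Its 20 neighbours had a median of -0.16 with 4 called. Sos1, an exchange factor for Ras and Rac that is recruited to Robo in Drosophila, was at 6.62, 6.63 and 6.76 in 8KR cells and at 6.14, 5.88 and 5.88 in wild type cells (difference 0.70, adjusted p = 0.0216 from limma), in a neighbourhood with a median of 0.19 and 4 called genes. Rock1, the kinase through which RhoA contracts actomyosin, was at 7.56, 7.60 and 7.69 in 8KR cells and at 7.08, 7.09 and 6.84 in wild type cells (difference 0.61, adjusted p = 0.0292 from limma), and its neighbours had a median of 0.20 with 2 called. Neighbour medians were 0.12 for Dpysl3, 0.18 for Dpysl2, 0.01 for Mical2 and -0.07 for Arhgef12. All 7 medians lay within the central range given above, and the part of the neighbourhood was not tested. In the list of co-receptors, which includes Neo1 and Flrt2, none of 11 genes was called. An unadjusted p under 0.05 by limma was found for 2 of them (18.2%), against 21.8% of all tested genes. Of the 11 genes 9 had negative and 2 positive differences, and the median was -0.14, against 0.01 over all tested genes. Whether this list differs from all genes was not tested. With 1 array left out only Dpysl3 remained called among the 7 called pathway genes, together with Sos1 without wild type replicate 1.

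**Figure D4:**
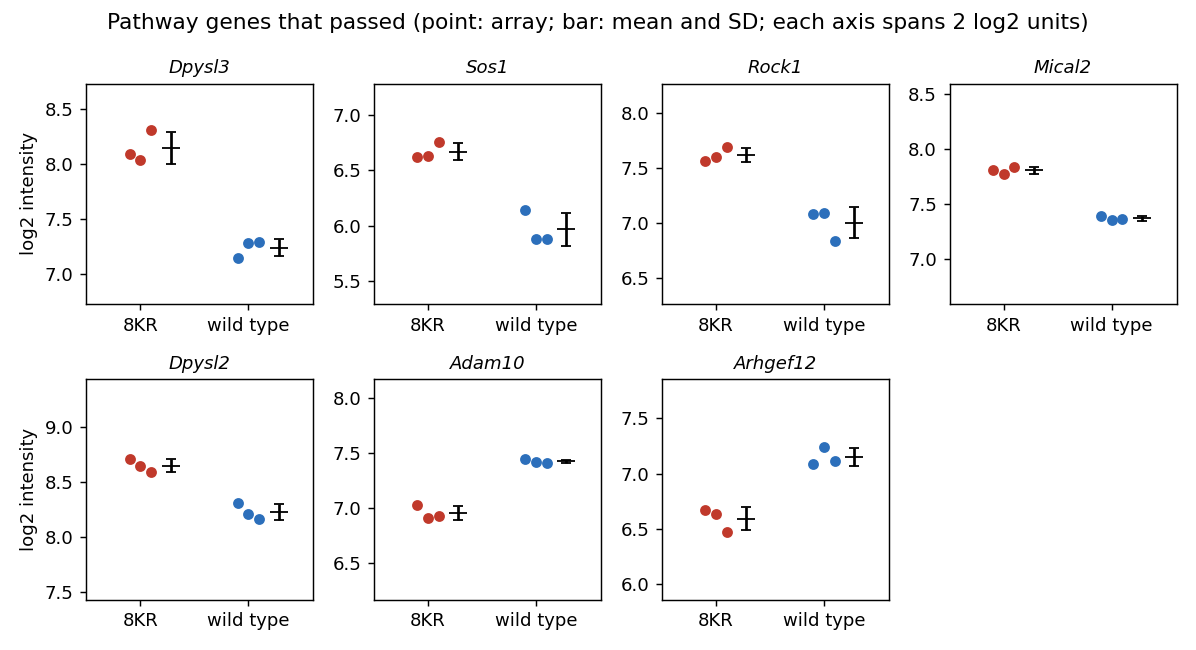
Log2 intensity (vertical axes, each spanning 2 log2 units) of the 7 called pathway genes on the 3 8KR arrays (red, left) and the 3 wild type arrays (blue, right), with the mean and SD beside the points. Dpysl3, Sos1, Rock1, Mical2 and Dpysl2 lie higher and Adam10 and Arhgef12 lower on all 8KR arrays.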

How the data were processed

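Gene expression was measured on 6 arrays, 3 of 8KR and 3 of wild type cells, grouped by the sample labels. The authors deposited 1 log2 intensity for each probe set on each array, already normalized. The processing notes of the submitters name Affymetrix Power Tools 1.12.0, and neither the normalization method nor a genome build is given in the sources used here. Of 35557 probe sets, 7014 with no group mean above 3.0 were removed, following the study's methods, and 28543 were fitted, with genotype as the only term, by lmFit and eBayes of limma 3.58.1 (R 4.3.3) with Benjamini-Hochberg adjustment. Of the probe sets, 21789 have 1 symbol in the platform annotation, 1621 several and 12147 none, and only the first kind was named. Gene order came from the RefSeq table of GRCm38.p6. Arrays give no count of reads, so their number limits the precision. The fit was tested on simulated data.

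The members and lists were chosen with earlier results of these data known, and no test was run over a list. Values on every array are given for members that passed, for members with an unadjusted p under 0.05 whose log2 difference reached 0.5 in size, and for the member with the smallest p in each family. Sema3a, Efna5, Sema4c, Plxna1, Efnb2 and Slit3 were added after their values were seen. Pathway genes were named if called, and Arhgef11, Neo1, Flrt2 and those under the other observations were added after their values were seen. Alternatives covered the filter, normalization, variance model, array weights, a replicate block, the probe sets used and each array left out. Figures were drawn with matplotlib 3.10.9.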

Additional observations from a re-analysis of the deposited data

How the results depend on the processing

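The count of 4 guidance genes called became 2 (Sema5a and Plxnb2) without a filter on low values and 0 once the replicate number entered as a block, where 0.367% of all genes passed, and it lay between 0 and 2 with 1 array left out. It was 4 to 6 with a filter at a group mean above 5.0, quantile normalization, median centring, an intensity trend, array weights, probe sets with a single symbol or the mean of a gene's probe sets. The extra calls were Sema3a (4 of the settings), Slit2 (2) and Robo2 (1). Epha7, Robo2 and Ntn4 lay below the filter at 5.0 and could not be tested there. The count of 7 pathway genes became 18 with the filter at 5.0, 16 with an intensity trend, 17 over probe sets with a single symbol and 0 with the replicate block, and between 1 and 2 with 1 array left out. The share of all genes called was then 17.6% with the filter at 5.0, 8.91% with the trend and 9.55% over single symbols. The labels do not say whether samples with the same number were prepared together. Correlations between the deviations of arrays with the same number were -0.0113, 0.00858 and -0.000484. For arrays with different numbers they lay between -0.0161 and 0.0174. With 3 arrays per group these values cannot settle the pairing, and the block also leaves fewer degrees of freedom. The filters, the intensity trend, the replicate block and the choice of probe sets cannot change the log2 differences of the 12 members followed here. Only normalization, array weights and leaving out an array could turn a sign. Of 177 log2 differences of these members under all the alternatives, 176 kept their sign. The exception was Ntn4, at -0.0016 without wild type replicate 1, in a range up to 0.16 with other single arrays left out. The cause was not tested.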

Other observations

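Several pathway genes that were not called had larger differences than most members, with groups that did not overlap. They were chosen after their values were seen. Such separation was common, as it held for 36 of the 78 tested pathway genes (46.2%) and for 29.7% of all tested genes. With a group mean above 5.0 it held for 52.4% of the pathway genes and 42.1% of all genes. Ablim1, an actin-binding relative of a worm guidance gene, was at 3.79, 4.17 and 3.70 in 8KR cells and at 4.80, 5.64 and 4.93 in wild type cells (log2 difference -1.24, adjusted p = 0.054 from limma). Srgap3, a GTPase-activating protein that binds Robo receptors, had a difference of -0.83 (adjusted p = 0.0822 from limma), and its relative Srgap1 had one of 0.54 (0.176). Rnd1, a GTPase that binds plexins, had a difference of -0.75 (adjusted p = 0.0718 from limma), and Abl2, a kinase of Eph and Robo signalling, had one of 0.58 (0.0552). The netrin receptor gene Neo1 had a difference of -0.38, in a neighbourhood with a median of -0.22 and 4 called genes, and Flrt2, a ligand of Unc5 receptors, had one of -0.50. Their adjusted p from limma was 0.0626 for Neo1 and 0.176 for Flrt2. At an unadjusted p under 0.05 there were 28 of the 78 pathway genes (35.9%), against 21.8% of all tested genes. Among those with a group mean above 5.0 the shares were 42.9% and 32.3%.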
